A study of Mus musculus with 9 samples.

Results

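The axon guidance families of the array were taken as every probe whose gene symbol names an ephrin (*Efna*, *Efnb*), an Eph receptor, a class 3 to class 7 semaphorin, a plexin, a neuropilin, a netrin, a Slit, a Robo receptor or an *Unc5* netrin receptor. This gave 93 probes for 62 genes, out of 25697 probes under 18120 symbols. *Dcc*, the receptor through which netrins attract, was not analysed here. *Nrp1* is listed on the array under its older symbol *Nrp*, outside the rule, so its values are given apart from the counts. All tissue came from CD-1 mouse embryos at E10.5, taken from 3 litters and pooled. OV samples were pools of otic vesicles, the closed epithelial sacs that give rise to the inner ear. Periotic tissue was a mix of the mesenchyme and hindbrain next to the vesicle, and embryo-minus-otic was the rest of the embryo after the wider otic region had been removed. Each group had 3 pools, each on an array of its own. The periotic and embryo-minus-otic groups each hold many cell types, so fewer cells of a type and less RNA per cell cannot be told apart for any difference below. The study set the OV against both non-otic groups to find what marks the early otic lineage, and the same comparisons are read here for guidance genes.

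Guidance genes encode ligands and receptors that attract or repel growing axons, migrating cells and vessel sprouts, and that sort cells across tissue borders. Ephrins sit in the membrane and bind Eph receptor tyrosine kinases on the neighbouring cell, A-type ephrins through a lipid anchor and B-type ephrins through a membrane-spanning stretch. Semaphorins signal through plexins, the secreted class 3 members mostly with a neuropilin as co-receptor, while netrins act through Dcc and Unc5 receptors and Slits repel cells that carry Robo receptors. In and around the ear, netrin 1 is known for its part in semicircular canal formation, Eph receptors and B-type ephrins for the borders between hindbrain segments, and semaphorins for the paths of cranial nerves and neural crest.

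Values are log2 intensities after quantile normalization over the 9 arrays, listed in the order of replicates 1, 2 and 3, and each mean carries its SD over n = 3 arrays. The fold Δ is the ratio of the higher to the lower group mean, taken back from the log2 scale. *q* is limma's p adjusted over all 25697 probes by Benjamini-Hochberg, and a probe with *q* under 0.05 was called. Levels were compared between groups for the same probe and never between probes. Being above background on an array meant a detection p-value under 0.01. Where no array of the lower group passed, the fold Δ is a lower bound ("at least") that sets the higher mean against, on each array, the dim probe's own reading or the dimmest reading that passed as above background, whichever was larger.

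Guidance genes were measurable in all 3 tissues. On all 3 arrays of a group, 40 member probes were above background in OV, 38 in periotic tissue and 33 in embryo-minus-otic. Among all 25697 probes these counts were 10811, 10927 and 10564, and 11849 passed on every array of at least 1 group. In all, 47 probes for 36 genes passed on every array of at least 1 group, 28 probes for 24 genes passed on all 9 arrays, and 7 probes passed on some arrays without filling a group. The other 39 probes passed on no array, and for 21 genes this held for every probe. These genes were the ephrins *Efna2* and *Efna3*, the Eph receptors *Epha5*, *Epha6*, *Epha8* and *Ephb6*, the netrins *Ntn1* and *Ntn4*, *Slit1*, *Robo2*, *Unc5d*, *Nrp2*, the semaphorins *Sema3c*, *Sema3d*, *Sema3e*, *Sema3g* and *Sema6c*, and the plexins *Plxna1*, *Plxna4*, *Plxnb3* and *Plxnc1*. For them the arrays gave no level above background, which does not show that the genes were silent. Across the 93 probes the SD within a group had a median of 0.11 in OV, 0.12 in periotic tissue and 0.12 in embryo-minus-otic, and a highest value of 0.44.

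**Figure D1:**
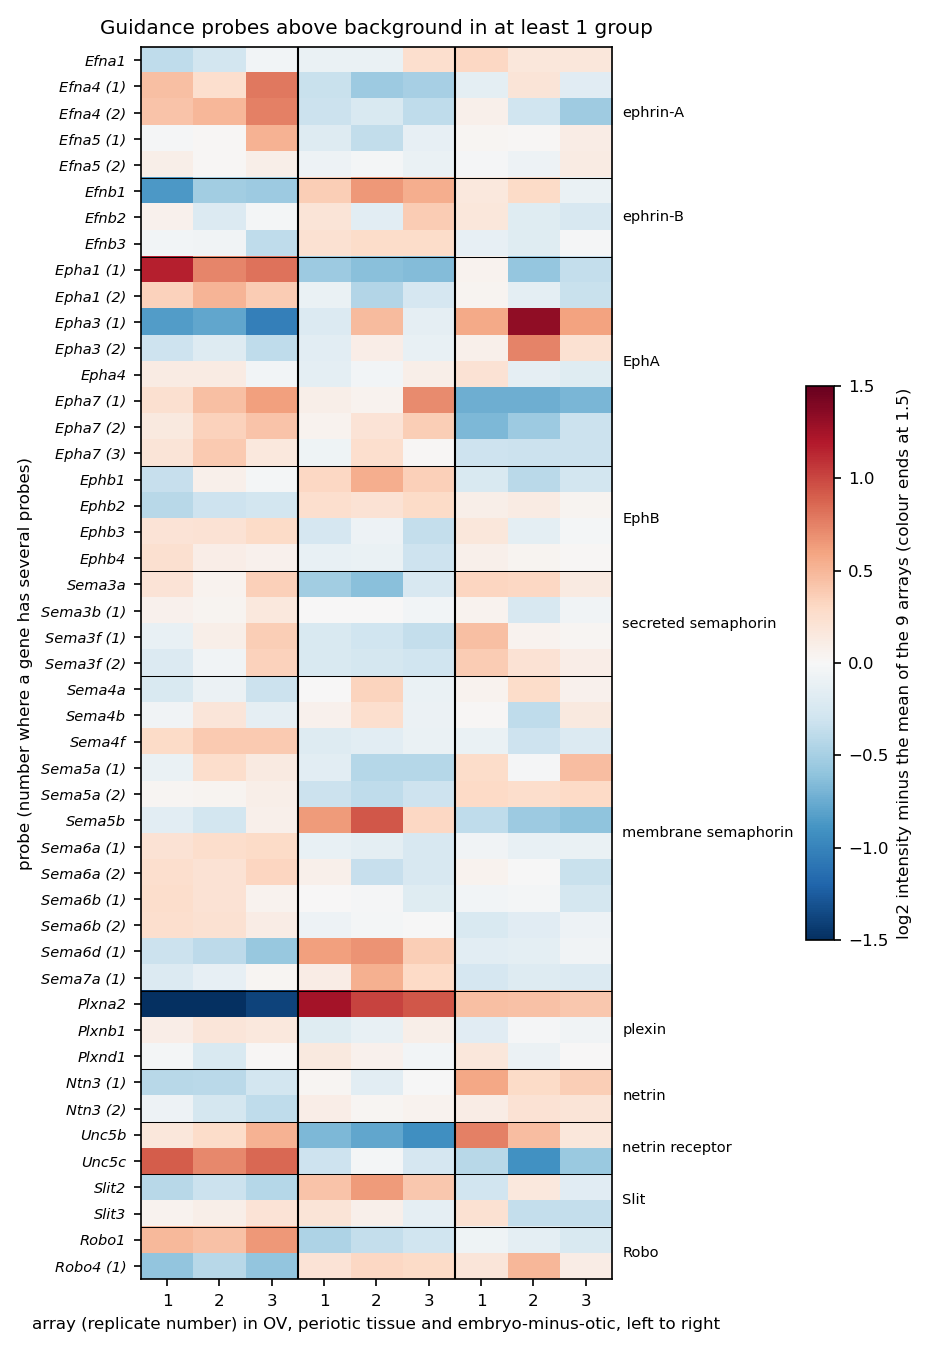
Log2 intensity of each of the 47 guidance probes above background in at least 1 group, drawn as the difference from that probe's mean over the 9 arrays, with arrays in columns (OV, periotic tissue and embryo-minus-otic, replicates 1 to 3) and probes in rows by family; red is above the mean and blue below it. *Plxna2* is the darkest blue on the OV arrays, *Epha1* and *Unc5c* are red there, and all 3 *Epha7* probes are blue on the embryo-minus-otic arrays.

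Compared with embryo-minus-otic, the OV was higher for 12 guidance probes of 8 genes and lower for 10 probes of 7 genes. The genes higher in OV were the receptors *Unc5c*, *Epha1*, *Epha7* and *Robo1* and the ligands *Efna4*, *Sema4f*, *Sema6a* and *Sema6b*. The genes lower in OV were the receptors *Plxna2*, *Epha3*, *Ephb2* and *Robo4* and the ligands *Efnb1*, *Efna1* and *Ntn3*. Over all probes 5.89% were called higher and 5.51% lower. Calls in either direction covered 23.7% of the members against 11.4% of all probes, and the median log2 difference was 0.02 over members and 0.00 over all probes. The fold Δ was 2 or more for 3 probes higher and 2 lower. With median normalization the same comparison gave 12 members higher and 3 lower, and *Efna1*, *Efnb1*, *Ephb2*, *Robo4*, both dimmer *Epha3* probes and the second *Ntn3* probe were no longer called (*q* from 0.051 to 0.41). Without normalization between arrays 6 were higher and 7 lower. Over all probes 1513 were higher and 1417 lower with quantile normalization. These counts were 1472 and 670 with median normalization, and 588 and 795 without normalization between arrays.

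Compared with periotic tissue, the OV was higher for 15 guidance probes of 11 genes and lower for 11 probes of 11 genes. The receptors *Unc5b*, *Unc5c*, *Epha1*, *Robo1*, *Ephb3* and *Ephb4* and the ligands *Efna4*, *Sema3a*, *Sema4f*, *Sema5a* and *Sema6a* were higher in OV. *Plxna2*, *Epha3*, *Ephb1*, *Ephb2* and *Robo4*, all receptors, and the ligands *Efnb1*, *Efnb3*, *Slit2*, *Sema5b*, *Sema6d* and *Sema7a* were lower. Over all probes 5.07% were called higher and 5.15% lower. Calls in either direction took 28.0% of the members and 10.2% of all probes, with a median log2 difference of 0.01 over members. The fold Δ reached 2 for 3 probes higher and 2 lower. With median normalization *Epha3* (*q* = 0.073), both *Sema5a* probes (*q* = 0.2 and 0.16), *Ephb4* (*q* = 0.15) and the second *Sema6a* probe (*q* = 0.094) were not called, and without normalization between arrays 8 members were higher and 9 lower. Over all probes 1302 were higher and 1323 lower with quantile normalization. These counts were 814 and 870 with median normalization, and 620 and 761 without normalization between arrays.

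Periotic tissue was higher than embryo-minus-otic for 10 guidance probes of 8 genes and lower for 8 probes of 6 genes. *Sema5b*, *Epha7*, *Ephb1*, *Sema6d*, *Plxna2*, *Slit2*, *Sema7a* and *Efnb3* were higher around the ear, and *Unc5b*, *Epha3*, *Sema3a*, *Sema5a*, *Sema3f* and *Ntn3* were lower. Over all probes 2.86% were called higher and 2.95% lower. Calls in either direction made up 19.4% of the members against 5.81% of all probes. The count of lower members is the least stable of these counts. It was 5 without periotic tissue replicate 1, 4 without replicate 2 and 4 without replicate 3. Over all probes 557, 522 and 692 were called lower in these fits, against 757 with all arrays. The split of higher to lower members was 9 to 1 with median normalization, 10 to 4 with limma's neqc background correction and 7 to 3 with no normalization between arrays. Over all probes these splits were 812 to 315, 669 to 650 and 325 to 371, against 736 to 757 with quantile normalization. *Unc5b* was the member still called lower with median normalization, where *Unc5c* was called higher (*q* = 0.0067).

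Set against both non-otic groups at once, 8 probes of 6 genes were higher in OV and 5 probes of 5 genes were lower. The genes higher than both were *Unc5c*, *Epha1*, *Robo1*, *Efna4*, *Sema4f* and *Sema6a*, and those lower than both were *Plxna2*, *Efnb1*, *Epha3*, *Robo4* and *Ephb2*. Over all probes 3.51% were higher than both groups and 2.65% lower. With median normalization the split was 8 higher to 1 lower, *Plxna2* being the member left. The matching split over all probes was not counted. The ligand and receptor genes were spread over both directions: among the 52 ligand probes 4 were higher than both groups and 1 lower, and among the 41 receptor probes 4 were higher and 4 lower.

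**Figure D2:**
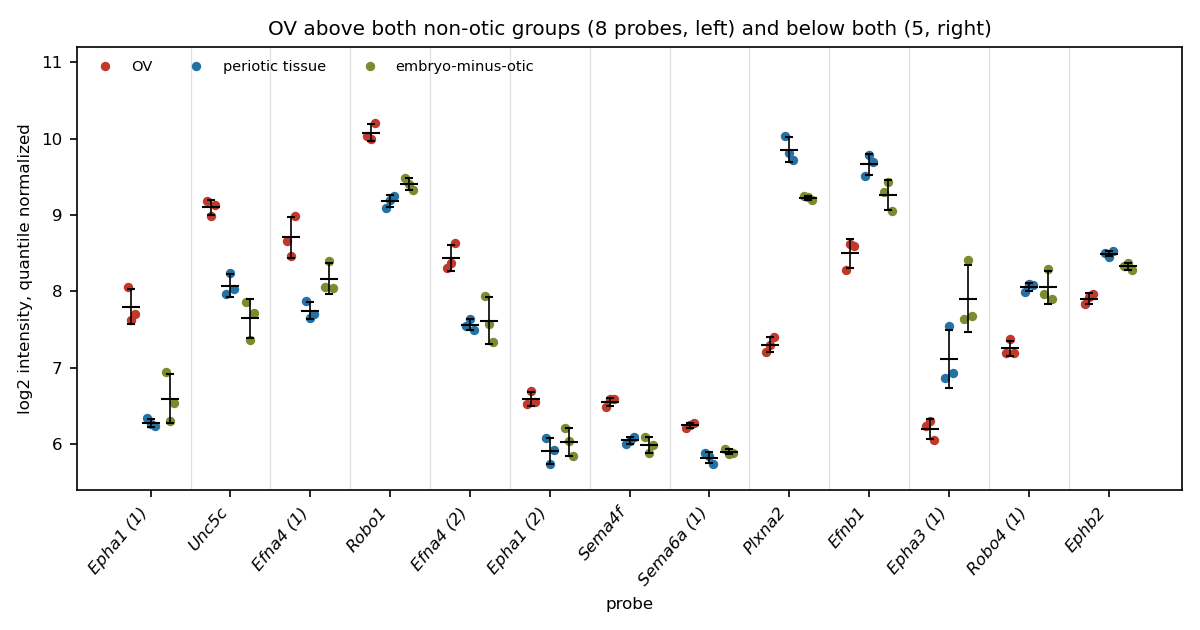
Log2 intensity, quantile normalized, of the 8 guidance probes above both non-otic groups in OV and the 5 below both, with 1 point per array (OV red, periotic tissue blue, embryo-minus-otic green) and bars for the mean and SD of 3 arrays. The OV points of *Plxna2* lie between 7.20 and 7.40 and those of the other groups between 9.20 and 10.04, and no probe has an OV point within the range of another group.

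The sequences just upstream of 6 of these genes are shown as examples, with *Unc5c*, *Robo1* and *Epha1* higher in OV than in both other groups and *Plxna2*, *Efnb1* and *Robo4* lower than in both. *Efna4* and *Sema4f* were also higher than both, and *Epha3* and *Ephb2* lower than both, but their sequences are not shown. Each sequence shown is the 200 bases before a RefSeq transcript start on assembly GRCm38.p6, written 5′ to 3′ along the gene, with CpG dinucleotides in capitals.
*Unc5c*, chr3:141465364-141465563, plus strand: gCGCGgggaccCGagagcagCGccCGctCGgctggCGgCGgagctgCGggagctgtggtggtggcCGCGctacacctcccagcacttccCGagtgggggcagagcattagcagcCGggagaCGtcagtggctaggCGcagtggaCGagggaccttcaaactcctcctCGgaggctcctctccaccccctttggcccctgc
*Robo1*, chr16:72662949-72663148, plus strand: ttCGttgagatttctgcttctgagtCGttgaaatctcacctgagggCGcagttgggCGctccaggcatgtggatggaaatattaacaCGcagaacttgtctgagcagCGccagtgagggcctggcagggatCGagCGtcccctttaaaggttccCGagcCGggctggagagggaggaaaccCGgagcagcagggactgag
*Epha1*, chr6:42373269-42373468, minus strand: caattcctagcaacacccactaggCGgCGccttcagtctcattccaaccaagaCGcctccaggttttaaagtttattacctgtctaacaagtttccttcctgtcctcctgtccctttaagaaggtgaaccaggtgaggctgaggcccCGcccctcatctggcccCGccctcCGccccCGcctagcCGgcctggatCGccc
*Plxna2*, chr1:194619629-194619828, plus strand: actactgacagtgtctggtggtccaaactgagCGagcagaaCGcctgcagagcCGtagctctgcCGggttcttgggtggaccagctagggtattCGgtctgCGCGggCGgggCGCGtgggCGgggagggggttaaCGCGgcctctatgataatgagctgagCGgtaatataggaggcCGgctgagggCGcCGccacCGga
*Efnb1*, chrX:99135861-99136060, plus strand: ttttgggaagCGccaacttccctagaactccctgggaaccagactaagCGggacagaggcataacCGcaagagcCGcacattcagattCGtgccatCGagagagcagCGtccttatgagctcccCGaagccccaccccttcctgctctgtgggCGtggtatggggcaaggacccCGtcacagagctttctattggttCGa
*Robo4*, chr9:37401772-37401971, plus strand: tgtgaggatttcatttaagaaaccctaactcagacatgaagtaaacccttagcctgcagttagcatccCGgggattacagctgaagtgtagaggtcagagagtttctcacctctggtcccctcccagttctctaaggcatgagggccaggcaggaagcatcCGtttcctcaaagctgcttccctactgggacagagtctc
The start used by the table need not be the outermost start of the gene. CpG dinucleotides numbered 17 before *Unc5c*, 11 before *Robo1*, 9 before *Epha1*, 18 before *Plxna2*, 11 before *Efnb1* and 2 before *Robo4*, against a median of 8 over the 21262 promoters of protein-coding genes and 15 over the 53 member genes with a promoter in the table. *Robo4* had the lowest GC content of the 6, at 50.5%, and *Unc5c* the highest, at 70.5%, with a median of 56.5% over all promoters and 67.0% over the member genes. A GC box, GGGCGG on either strand, occurred 3 times before *Epha1* and 2 times before *Plxna2*, and was found in 40.8% of all promoters and in 38 of the 53 members. The E-box CANNTG, which reads the same on both strands, was found 3 times before *Robo1*, 2 times before *Epha1* and 1 time before *Robo4*, and in 54.6% of all promoters. These are matches of letters in a window of 200 bases, and the arrays measured no binding there.

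Among the A-type ephrins, the lipid-anchored ligands, *Efna4* was higher in OV than in both other groups and *Efna1* was lower than in embryo-minus-otic. The brighter *Efna4* probe read 8.66, 8.46 and 8.99 in OV, 7.87, 7.66 and 7.71 on the periotic arrays and 8.06, 8.40 and 8.04 in embryo-minus-otic. Its OV arrays lay above all others, by 1.95-fold over periotic tissue (log2 0.96, SE 0.13, *q* = 9.4e-05) and 1.45-fold over embryo-minus-otic (log2 0.54, *q* = 0.013). The second *Efna4* probe gave 1.84-fold (*q* = 0.00025) and 1.77-fold (*q* = 0.00047). For the brighter probe the difference from embryo-minus-otic was not called without OV replicate 3 (*q* = 0.073), without embryo-minus-otic replicate 1 (*q* = 0.052) or without replicate 3 (*q* = 0.06). Without OV replicate 3 its difference between periotic tissue and embryo-minus-otic was called (log2 −0.42, *q* = 0.042). The brighter *Efna5* probe was well above background in all 3 groups, at 10.89 ± 0.30 in OV, 10.49 ± 0.12 in periotic tissue and 10.76 ± 0.054 in embryo-minus-otic. It was not called (lowest *q* = 0.0604, against periotic tissue, and 0.034 without OV replicate 1). The second *Efna5* probe was near background, at 6.22, 6.09 and 6.17, and was not called (lowest *q* = 0.48). It passed on 3 OV arrays, 0 periotic arrays and 1 embryo-minus-otic array. *Efna1* ran the other way, at 6.36 ± 0.18, 6.61 ± 0.20 and 6.81 ± 0.080, and was 1.36-fold lower in OV than in embryo-minus-otic (*q* = 0.017). That call was lost without OV replicate 1 (*q* = 0.09), without OV replicate 2 (*q* = 0.07) and without embryo-minus-otic replicate 1 (*q* = 0.06).

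The B-type ephrins, transmembrane ligands that also pass signals back into their own cell, included 1 gene lower in OV than in both other groups, *Efnb1*, and 1 gene higher in periotic tissue than in both, *Efnb3*. *Efnb1* read 8.28, 8.62 and 8.60 in OV, 9.51, 9.79 and 9.69 on the periotic arrays and 9.30, 9.43 and 9.05 in embryo-minus-otic. No OV array reached the lowest array of the other groups, and the OV mean was 2.24-fold below periotic tissue (log2 −1.17, SE 0.12, *q* = 5.1e-06) and 1.70-fold below embryo-minus-otic (log2 −0.76, *q* = 0.00039). Periotic tissue was above embryo-minus-otic by 0.40 on the log2 scale with no overlap (*q* = 0.07, and 0.035 without embryo-minus-otic replicate 2). *Efnb3* was above background on all periotic arrays, 2 OV arrays and 1 embryo-minus-otic array, and was 1.34-fold higher in periotic tissue than in OV (*q* = 0.011) and 1.29-fold higher than in embryo-minus-otic (*q* = 0.044). The first call was lost without OV replicate 3 (*q* = 0.063), and the second without any 1 array other than OV replicate 3 (*q* from 0.052 to 0.14). *Efnb2*, a ligand of Ephb4 in vessels, read 8.20 ± 0.14, 8.40 ± 0.27 and 8.17 ± 0.22 in the 3 groups, and its arrays overlapped in all comparisons (lowest *q* = 0.50).

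The EphA receptors, which bind mostly A-type ephrins, split by gene. *Epha1* read 8.06, 7.63 and 7.71 in OV, 6.34, 6.26 and 6.24 on the periotic arrays and 6.95, 6.31 and 6.53 in embryo-minus-otic. The lowest OV array lay above the highest of the other 6, and the OV mean was 2.86-fold above periotic tissue (log2 1.52, SE 0.14, *q* = 1.7e-06) and 2.30-fold above embryo-minus-otic (log2 1.20, SE 0.14, *q* = 2.2e-05). A second *Epha1* probe passed on all OV arrays, no periotic array and 1 embryo-minus-otic array. In OV it was at least 1.33-fold above periotic tissue (*q* = 0.00051) and 1.47-fold above embryo-minus-otic (*q* = 0.0029). Another *Epha1* probe passed on 1 OV array only and was not called.

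*Epha7* was higher in OV and in periotic tissue than in the rest of the embryo. Its brightest probe read 8.94, 9.16 and 9.32 in OV, 8.79, 8.75 and 9.41 on the periotic arrays and 7.97, 7.97 and 8.02 in embryo-minus-otic. OV and periotic arrays overlapped (*q* = 0.68), and both lay above every embryo-minus-otic array. The fold Δ over embryo-minus-otic was 2.22 for OV (log2 1.15, SE 0.15, *q* = 4.8e-05) and 1.99 for periotic tissue (log2 0.99, *q* = 0.00041). The other *Epha7* probes moved the same way, with 1.77-fold and 1.48-fold for OV and 1.65-fold and 1.30-fold for periotic tissue. The last of these (*q* = 0.032) was not called without periotic tissue replicate 2 (*q* = 0.18) or 3 (*q* = 0.054) and without embryo-minus-otic replicate 1 (*q* = 0.07), 2 (*q* = 0.074) or 3 (*q* = 0.077).

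*Epha3*, a receptor often found on mesenchyme, was lowest in OV and highest in embryo-minus-otic. Its brightest probe read 6.24, 6.30 and 6.05 in OV, where 2 of 3 arrays were above background, 6.87, 7.55 and 6.93 on the periotic arrays and 7.64, 8.41 and 7.68 in embryo-minus-otic. None of the groups overlapped. OV was 3.27-fold below embryo-minus-otic (log2 −1.71, SE 0.19, *q* = 1.3e-05) and 1.89-fold below periotic tissue (log2 −0.92, *q* = 0.0043), and periotic tissue was 1.73-fold below embryo-minus-otic (log2 −0.79, *q* = 0.022). The last call was lost without periotic tissue replicate 1 (*q* = 0.13) or 3 (*q* = 0.084) and without embryo-minus-otic replicate 2 (*q* = 0.069). The second *Epha3* probe, not above background in OV, was at least 1.29-fold higher in embryo-minus-otic than in OV (*q* = 0.0055), and without embryo-minus-otic replicate 1 it was also called between the non-otic groups (log2 −0.56, *q* = 0.031). The dimmest *Epha3* probe passed on no OV array and on 1 array of each other group. It was called at least 1.05-fold higher in embryo-minus-otic than in OV (*q* = 0.039), and was not called without OV replicate 1 (*q* = 0.11), OV replicate 3 (*q* = 0.15) or embryo-minus-otic replicate 2 (*q* = 0.18). *Epha4*, known from the hindbrain segments, was close to background, at 6.42 ± 0.091, 6.32 ± 0.11 and 6.32 ± 0.22, and its arrays overlapped in all comparisons (lowest *q* = 0.69).

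EphB receptors, the partners of B-type ephrins, were measured by 5 probes, of which *Ephb1* and *Ephb2* were called lower and *Ephb3* and *Ephb4* higher in OV than in periotic tissue. *Ephb2* read 7.83, 7.93 and 7.96 in OV, 8.50, 8.46 and 8.53 on the periotic arrays and 8.33, 8.37 and 8.28 in embryo-minus-otic. The OV arrays lay below all others, by 1.50-fold against periotic tissue (log2 −0.59, SE 0.082, *q* = 0.000105) and 1.34-fold against embryo-minus-otic (log2 −0.42, *q* = 0.0024). *Ephb1* peaked in periotic tissue, at 8.26, 8.50 and 8.31, against 7.61, 8.03 and 7.92 in OV (1.42-fold, *q* = 0.0066) and 7.72, 7.55 and 7.68 in embryo-minus-otic (1.63-fold, *q* = 0.00074). *Ephb3* was above background on the OV arrays alone and was at least 1.05-fold higher there than in periotic tissue (*q* = 0.0058). The probe of *Ephb4*, the venous receptor for ephrin-B2, had means of 6.69 ± 0.093, 6.38 ± 0.12 and 6.60 ± 0.030. OV was 1.24-fold above periotic tissue (*q* = 0.041), a call that was lost without any OV or periotic array and without embryo-minus-otic replicate 3, with *q* from 0.052 to 0.19.

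**Figure D3:**
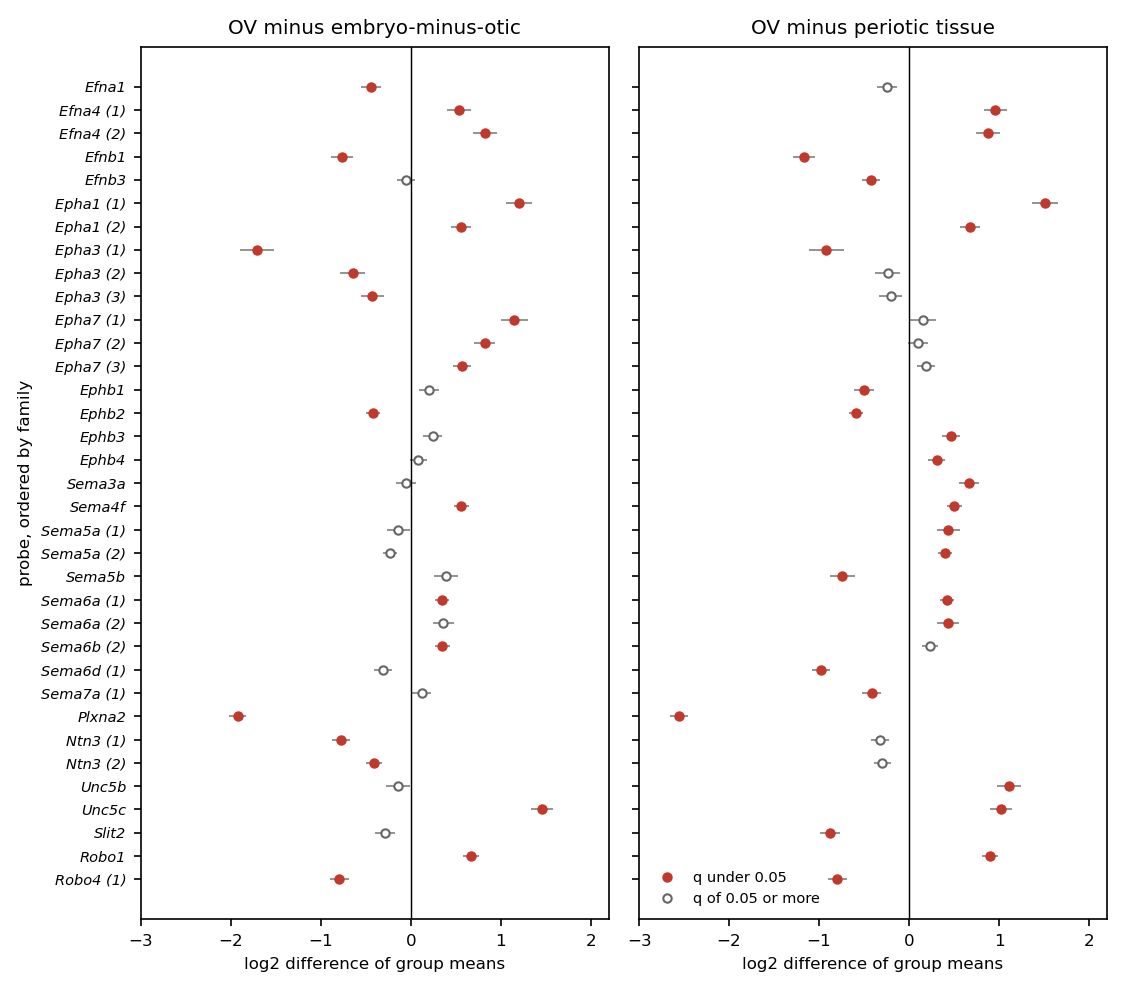
Log2 difference of group means, OV minus embryo-minus-otic (left) and OV minus periotic tissue (right), for the 35 guidance probes called in at least 1 of these comparisons, by family. Points are differences, bars are 1 SE of the fit, and filled points have *q* under 0.05. *Plxna2* lies farthest to the left in both panels, *Unc5c* farthest to the right against embryo-minus-otic and *Epha1* farthest to the right against periotic tissue.

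Among the secreted class 3 semaphorins, *Sema3a* was called lower in periotic tissue than in both other groups, and *Sema3f* lower than in embryo-minus-otic only. *Sema3a*, a repellent for sensory axons, read 7.86, 7.71 and 8.003 in OV, 7.13, 7.02 and 7.41 on the periotic arrays and 7.98, 7.96 and 7.79 in embryo-minus-otic. The OV and embryo-minus-otic arrays overlapped (*q* = 0.88), and both lay above every periotic array, with 1.59-fold for OV (log2 0.67, SE 0.11, *q* = 0.00062) and 1.65-fold for embryo-minus-otic (log2 −0.72 for periotic tissue, *q* = 0.00064). The brighter *Sema3f* probe averaged 9.49 ± 0.25, 9.09 ± 0.063 and 9.56 ± 0.24, and its second probe 8.82 ± 0.29, 8.53 ± 0.039 and 9.02 ± 0.14. Periotic tissue was below embryo-minus-otic by 1.38-fold (*q* = 0.047) and 1.41-fold (*q* = 0.025) with these probes. Both calls were lost without any 1 of the 3 periotic arrays and without embryo-minus-otic replicate 1 (*q* from 0.069 to 0.2), and the first also without OV replicate 2 (*q* = 0.07). They were also lost with median normalization, with neqc and with no normalization between arrays (*q* from 0.075 to 0.74). In the fit to all 9 arrays neither probe was called between OV and periotic tissue. The dimmest *Sema3f* probe was above background on no array and was not called. The brighter probe was called higher in OV than in periotic tissue without OV replicate 1 (*q* = 0.026) or embryo-minus-otic replicate 1 (*q* = 0.029), and the second was called lower in OV than in embryo-minus-otic without OV replicate 3 (*q* = 0.049). *Sema3b* passed on all OV and periotic arrays and was not called (lowest *q* = 0.32).

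Among the membrane-bound semaphorins, *Sema5b*, *Sema6d* and *Sema7a* were highest in periotic tissue. *Sema5b*, whose outer part carries thrombospondin repeats, read 6.77, 6.65 and 7.004 in OV, 7.56, 7.86 and 7.23 on the periotic arrays and 6.55, 6.38 and 6.32 in embryo-minus-otic. Periotic arrays lay above all others, by 1.67-fold over OV (log2 −0.74 for OV, *q* = 0.0016) and 2.20-fold over embryo-minus-otic (log2 1.13, SE 0.14, *q* = 6.1e-05). OV was above embryo-minus-otic by 0.39 on the log2 scale without overlap (*q* = 0.089), and that difference was called without periotic tissue replicate 2 (*q* = 0.046) or 3 (*q* = 0.038). *Sema6d* read 6.38, 6.32 and 6.14 in OV, 7.33, 7.38 and 7.08 on the periotic arrays and 6.55, 6.56 and 6.65 in embryo-minus-otic, so that again no periotic array overlapped another group. It was 1.97-fold lower in OV than in periotic tissue (log2 −0.98, SE 0.10, *q* = 4.3e-06) and 1.59-fold higher in periotic tissue than in embryo-minus-otic (*q* = 0.00043), while OV was lower than embryo-minus-otic by a log2 difference of −0.31 (*q* = 0.063, and 0.044 without periotic tissue replicate 3). *Sema7a*, a lipid-anchored member that also acts through integrins, was 1.33-fold lower in OV than in periotic tissue (*q* = 0.019) and at least 1.40-fold higher in periotic tissue than in embryo-minus-otic (*q* = 0.0055). The OV call of *Sema7a* was lost without OV replicate 1 (*q* = 0.089) or 2 (*q* = 0.072) and without periotic tissue replicate 2 (*q* = 0.11). These values are from the brightest probes of *Sema6d* and *Sema7a*. The other probes of both genes were above background on no array and were not called.

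*Sema5a*, the close relative of *Sema5b*, was lowest in periotic tissue. Its second probe, the tighter of the pair, read 7.92, 7.94 and 7.99 in OV, 7.57, 7.51 and 7.58 on the periotic arrays and 8.19, 8.15 and 8.19 in embryo-minus-otic. The arrays of the 3 groups did not overlap, with periotic tissue 1.54-fold below embryo-minus-otic (*q* = 9.3e-05) and 1.32-fold below OV (*q* = 0.003). OV against embryo-minus-otic was not called with this probe (log2 −0.23, *q* = 0.085) or with the brighter one, whose arrays overlapped there (*q* = 0.63). For periotic tissue below embryo-minus-otic and below OV, the brighter probe gave 1.49-fold (*q* = 0.013) and 1.36-fold (*q* = 0.042). Its call against OV was lost without OV replicate 2 (*q* = 0.19) or 3 (*q* = 0.13) and periotic tissue replicate 2 (*q* = 0.16) or 3 (*q* = 0.14), and its call against embryo-minus-otic without embryo-minus-otic replicate 3 (*q* = 0.066) and periotic tissue replicate 2 (*q* = 0.068) or 3 (*q* = 0.051). With median normalization and with no normalization between arrays, both calls were lost for both *Sema5a* probes (*q* from 0.10 to 0.60).

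*Sema4f* and *Sema6a* were above background on every OV array and on no other array, and the second *Sema6b* probe on every OV array and 2 periotic arrays. *Sema4f* read 6.49, 6.59 and 6.59 in OV, 6.01, 6.04 and 6.10 on the periotic arrays and 6.10, 5.88 and 5.99 in embryo-minus-otic, and was at least 1.29-fold higher than in periotic tissue (*q* = 0.00082) and at least 1.26-fold higher than in embryo-minus-otic (*q* = 0.0003). The first *Sema6a* probe was at least 1.04-fold (*q* = 0.0022) and at least 1.02-fold higher (*q* = 0.01), bounds that lie close to 1 because its OV mean of 6.24 ± 0.032 was itself near background. The second *Sema6a* probe was called against periotic tissue (at least 1.03-fold, *q* = 0.029) and not against embryo-minus-otic (*q* = 0.07), although the latter difference was called without embryo-minus-otic replicate 1 (*q* = 0.045) or periotic tissue replicate 1 (*q* = 0.044). The former call was lost without any OV array and without periotic tissue replicate 2 or 3 (*q* from 0.063 to 0.15). The second *Sema6b* probe was at least 1.18-fold higher in OV than in embryo-minus-otic (*q* = 0.012) and was not called without OV replicate 1 (*q* = 0.058) or 2 (*q* = 0.051). The first *Sema6b* probe, above background on all 9 arrays, was higher in OV without overlap but was not called (*q* = 0.077 against embryo-minus-otic and 0.16 against periotic tissue). *Sema4b* (9.01 ± 0.16, 9.09 ± 0.17 and 8.94 ± 0.27) and *Sema4a* (6.33 ± 0.12, 6.62 ± 0.23 and 6.67 ± 0.12) were not called, with a lowest *q* of 0.071 for *Sema4a* against embryo-minus-otic, which was 0.036 without periotic tissue replicate 2.

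*Plxna2*, a receptor of class 3 and class 6 semaphorins, had the largest difference between groups of the 93 probes. It read 7.20, 7.30 and 7.40 in OV, 10.04, 9.81 and 9.72 on the periotic arrays and 9.25, 9.23 and 9.20 in embryo-minus-otic. The OV arrays were far below and the periotic arrays above all others. OV was 5.88-fold below periotic tissue (log2 −2.56, SE 0.097, *q* = 7.2e-11) and 3.79-fold below embryo-minus-otic (log2 −1.92, SE 0.097, *q* = 2.1e-09), and periotic tissue was 1.55-fold above embryo-minus-otic (log2 0.63, *q* = 0.00055). Of the 8 plexin probes, *Plxnb1* and *Plxnd1* were the others that filled a group. *Plxnb1* was at 6.59 ± 0.042 in OV, 6.38 ± 0.14 in periotic tissue and 6.36 ± 0.081 in embryo-minus-otic and was not called (lowest *q* = 0.15). *Plxnd1*, the receptor of semaphorin 3E in vessels, read 6.19 ± 0.13, 6.32 ± 0.094 and 6.30 ± 0.13 and overlapped in all comparisons (lowest *q* = 0.57). Its ligand *Sema3e*, *Plxna1* and the 3 probes of *Nrp2* were not above background on any array.

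Neuropilin 1, the co-receptor of semaphorin 3A and of vascular endothelial growth factor, was measured by 2 probes on chromosome 8 under the symbol *Nrp*. The brighter read 7.999, 7.74 and 7.71 in OV, 8.34, 8.49 and 8.56 on the periotic arrays and 9.20, 9.32 and 9.29 in embryo-minus-otic, so the 3 groups did not overlap. OV was 2.74-fold below embryo-minus-otic (log2 −1.45, SE 0.099, *q* = 4.7e-08) and 1.56-fold below periotic tissue (log2 −0.64, *q* = 0.00028), and periotic tissue was 1.75-fold below embryo-minus-otic (log2 −0.81, *q* = 6.4e-05). The second probe gave 2.71-fold, 1.47-fold and 1.84-fold in the same order, with *q* of 1.4e-07, 0.0022 and 6.6e-05.

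Netrins and their Unc5 receptors did not move together. *Ntn1* was above background on no array, with means of 5.85, 5.91 and 5.93, so its level in the vesicle could not be read. *Ntn3*, a netrin of sensory ganglia, read 8.15, 8.15 and 8.29 in OV, 8.59, 8.41 and 8.56 on the periotic arrays and 9.14, 8.84 and 8.93 in embryo-minus-otic. The groups were ordered without overlap. OV was 1.71-fold below embryo-minus-otic (log2 −0.77, SE 0.098, *q* = 4.1e-05), and periotic tissue was 1.37-fold below it (*q* = 0.0094). The periotic call was lost without embryo-minus-otic replicate 1 (*q* = 0.051) or periotic tissue replicate 2 (*q* = 0.059). OV against periotic tissue stood at the threshold (log2 −0.32, *q* = 0.05004) and was called without embryo-minus-otic replicate 1 (*q* = 0.032) or 2 (*q* = 0.037) and without periotic tissue replicate 2 (*q* = 0.0497). The second *Ntn3* probe was 1.33-fold lower in OV than in embryo-minus-otic (*q* = 0.0072), and was called lower than in periotic tissue without OV replicate 1 (*q* = 0.022).

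*Unc5c* and *Unc5b*, receptors through which netrins repel, were both higher in OV than in periotic tissue but differed in the rest of the embryo. *Unc5c* read 9.18, 8.99 and 9.13 in OV, 7.96, 8.24 and 8.03 on the periotic arrays and 7.86, 7.36 and 7.71 in embryo-minus-otic. Every OV array lay above every other array, with 2.74-fold over embryo-minus-otic (log2 1.45, SE 0.12, *q* = 4.8e-07) and 2.03-fold over periotic tissue (log2 1.02, SE 0.12, *q* = 2.1e-05). Periotic tissue stood above embryo-minus-otic by 0.43 on the log2 scale (*q* = 0.0502, and 0.018 without embryo-minus-otic replicate 1). *Unc5b*, which is also found on vessel tip cells, read 7.93, 8.04 and 8.29 in OV, 7.09, 6.99 and 6.85 on the periotic arrays and 8.52, 8.23 and 7.93 in embryo-minus-otic. Its OV and embryo-minus-otic arrays overlapped (*q* = 0.65), and the periotic arrays lay below both, by 2.16-fold against OV (log2 1.11 for OV, *q* = 2.6e-05) and 2.39-fold against embryo-minus-otic (log2 −1.25, SE 0.13, *q* = 1.8e-05). *Unc5a* was above background on 1 embryo-minus-otic array and *Unc5d* on none.

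Of the Slit ligands, *Slit2* was highest in periotic tissue, and of their receptors *Robo1* was highest in OV. *Slit2* read 8.67, 8.76 and 8.65 in OV, 9.52, 9.72 and 9.48 on the periotic arrays and 8.79, 9.24 and 8.91 in embryo-minus-otic. The periotic arrays lay above all others, by 1.84-fold over OV (log2 −0.88 for OV, SE 0.11, *q* = 4.4e-05) and 1.51-fold over embryo-minus-otic (log2 0.59, *q* = 0.0037). OV lay below embryo-minus-otic without overlap (log2 −0.29, *q* = 0.13), a difference called without embryo-minus-otic replicate 1 (*q* = 0.048). *Slit3* had means of 6.43 ± 0.077, 6.36 ± 0.17 and 6.16 ± 0.34 and was not called (lowest *q* = 0.28). Without embryo-minus-otic replicate 1, *Slit3* was called higher than embryo-minus-otic in OV (*q* = 0.009) and in periotic tissue (*q* = 0.047).

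*Robo1* read 10.04, 9.99 and 10.20 in OV, 9.09, 9.20 and 9.25 on the periotic arrays and 9.49, 9.41 and 9.32 in embryo-minus-otic. The OV arrays stood above all others, by 1.86-fold over periotic tissue (log2 0.90, SE 0.091, *q* = 4e-06) and 1.59-fold over embryo-minus-otic (log2 0.67, SE 0.091, *q* = 8.8e-05). In OV against periotic tissue the receptor *Robo1* and the ligand *Slit2* thus differed in opposite directions. *Robo4*, a receptor known from endothelium, read 7.20, 7.37 and 7.20 in OV, 7.99, 8.10 and 8.08 on the periotic arrays and 7.97, 8.29 and 7.90 in embryo-minus-otic. It was 1.74-fold lower in OV than in periotic tissue (log2 −0.80, SE 0.11, *q* = 6.4e-05) and 1.74-fold lower than in embryo-minus-otic (*q* = 6.9e-05), with no overlap, and the non-otic groups overlapped (*q* = 0.99). The other *Robo4* probes, like *Robo2*, were above background on no array and were not called.

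**Figure D4:**
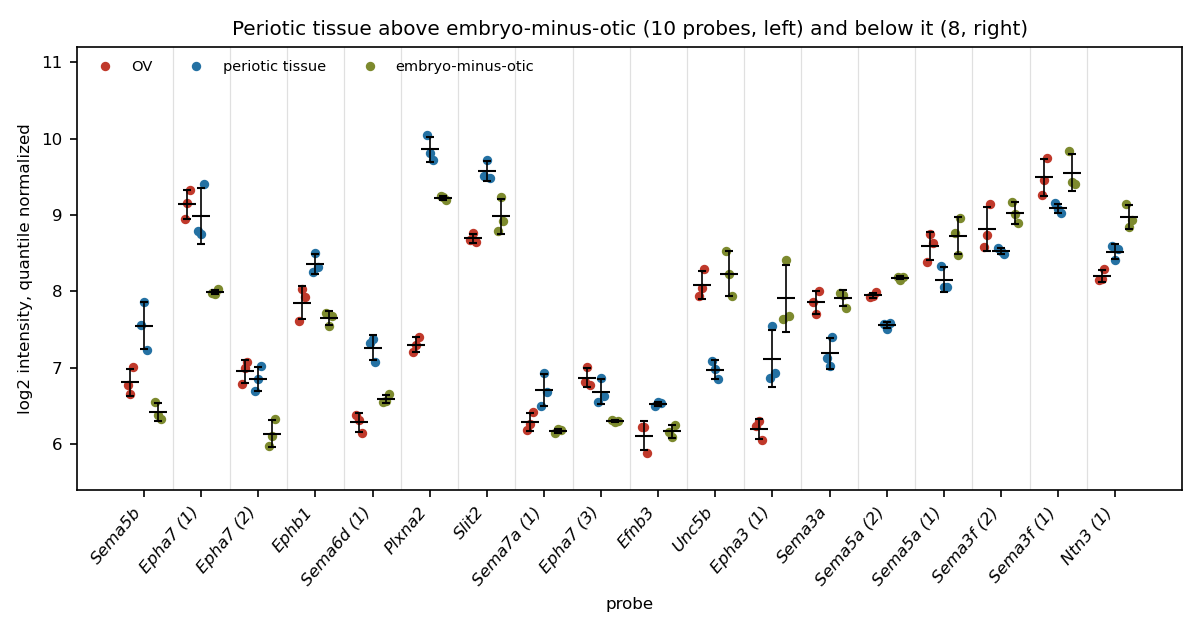
Log2 intensity, quantile normalized, of the 10 guidance probes higher and the 8 lower in periotic tissue than in embryo-minus-otic, with 1 point per array (OV red, periotic tissue blue, embryo-minus-otic green) and bars for the mean and SD of 3 arrays. *Sema5b*, *Ephb1*, *Sema6d*, *Slit2* and *Plxna2* have periotic points above both other groups, while for *Unc5b*, *Sema3a* and *Sema5a* the periotic points are the lowest.

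Guidance ligands, receptors and adhesion genes outside these families were read from the same fit, with 42 probes for 18 of 22 listed genes. None was called higher in OV, 10 probes were lower than in embryo-minus-otic and 4 were lower than in periotic tissue, and between the non-otic groups 3 were higher and 6 lower in periotic tissue. Calls in either direction covered 23.8%, 9.52% and 21.4% of the list in these comparisons, against 11.4%, 10.2% and 5.81% of all probes, so the count against periotic tissue was close to the share over the whole array. The draxin gene, listed as *2610109H07Rik* and encoding a secreted repellent that binds Dcc, had means of 6.36 in OV, 8.77 in periotic tissue and 7.88 in embryo-minus-otic (log2 −2.41 and −1.53 in OV, *q* = 3.4e-09 and 7.1e-07). *Rgma*, a repellent ligand of neogenin, was also highest in periotic tissue, at 10.95 against 9.79 in OV (log2 −1.16, *q* = 5.6e-06) and 10.25 in embryo-minus-otic (log2 0.70, *q* = 0.0018). The chemokine receptor *Cxcr4* was higher in periotic tissue than in OV (log2 −1.18, *q* = 4.1e-07) and in embryo-minus-otic (log2 0.93, *q* = 1.6e-05). Its ligand *Cxcl12* and the adhesion gene *Flrt3*, which binds Unc5 receptors, were lower in OV and in periotic tissue than in embryo-minus-otic, with log2 differences of −0.62 and −0.72 for the brightest *Cxcl12* probe and −0.78 and −0.92 for the brightest *Flrt3* probe (*q* = 0.003 or less).

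The tissue labels were checked with marker lists, whose changes ran beside those of the guidance genes. Otic epithelium markers were higher in OV than in both other groups for 13 of 18 probes, led by *Oc90*, *Fbxo2*, *Lmx1a*, *Gata3* and *Tbx2*, with a summed level of 8116 to 8838 in OV, 1412 to 1546 in periotic tissue and 1611 to 1693 in embryo-minus-otic. General epithelial markers were higher than both for 6 of 6 probes. Neuron markers ran with *Sema5b*, *Sema6d*, *Ephb1*, *Slit2*, *Plxna2*, *Sema7a* and *Efnb3* in the comparisons that involve periotic tissue. Of their 12 probes 9 were lower in OV than in periotic tissue and 7 were higher in periotic tissue than in embryo-minus-otic, and their sum was 1302 to 1599 in OV, 3218 to 4342 in periotic tissue and 2170 to 2489 in embryo-minus-otic. Against embryo-minus-otic, 6 of the 12 neuron probes were lower in OV and 0 higher. In that comparison *Plxna2* was called lower in OV (log2 −1.92). Of the others, *Sema6d*, *Slit2* and *Efnb3* were lower (log2 −0.31, −0.29 and −0.05) and *Sema5b*, *Ephb1* and *Sema7a* higher (log2 0.39, 0.20 and 0.12), none of them called. Hindbrain and neural tube progenitor markers gave 12 and 9 of 16 probes in the same comparisons. Mesenchyme markers ran with *Epha3* and *Nrp*, lower in OV than in embryo-minus-otic for 11 of 12 probes and lower in periotic tissue for 10, although 1 of 12 differed between OV and periotic tissue. Endothelial markers ran with *Robo4*, lower in OV for 6 of 12 probes against embryo-minus-otic and 4 against periotic tissue, and their sum was 2207 to 2937 in OV, 3520 to 3871 in periotic tissue and 3743 to 4347 in embryo-minus-otic. Floor plate markers were lower in OV than in both other groups for 5 of 6 probes and erythroid markers for 7 of 7, and otic and cranial neuroblast markers for 1 of 8 with 1 of 8 higher than both. Neural crest markers were lower than both for 1 of 4 probes. Markers of heart and skeletal muscle, limb and posterior body, and liver and endoderm were lower in OV than in embryo-minus-otic for 6 of 9, 3 of 13 and 5 of 6 probes. On all OV arrays, 8 of 12 endothelial, 7 of 12 mesenchyme and 4 of 12 neuron probes were above background, against 10, 10 and 9 in periotic tissue and 8, 11 and 9 in embryo-minus-otic. Those in OV included *Cldn5*, *Emcn* and *Pecam1* among the endothelial genes and *Gap43*, *Elavl3* and *Dcx* among the neuronal genes, and *Pdgfra*, *Twist1* and *Prrx1*, while *Stmn3*, *Tubb3* and *Shh* were above background on no OV array. The part of each cell type in the guidance differences was not tested.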

How the data were processed

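RNA from 9 tissue pools, 3 per group, was hybridized to 1-colour Illumina mouse bead arrays. Per probe and array the authors deposited an average signal, an intensity not normalized between arrays, and a detection p-value that ranks it against negative control beads. Groups were taken from the tissue in each label. Intensities were floored at 1, put on a log2 scale and quantile normalized over the 9 arrays, since the deposited values were on a linear scale and not log2. A limma fit (version 3.58.1, R 4.3.3) was made to all 25697 probes as a model of 3 group means with an empirical Bayes prior, two-sided, and p-values were adjusted over all probes by Benjamini and Hochberg to give *q*. Depth does not apply to arrays, and their number limits the precision. Whether replicates came from separate litters is not stated in the labels, so p-values measure the spread between these pools.

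Probes of a gene were kept apart, with the brightest given first. Probes named with full values were, per comparison and direction, the 8 largest log2 differences among called probes above background on all arrays of the higher group, and the members with textbook roles in ear, hindbrain, nerve or vessel patterning. Other called probes were named after their values were seen. Members and lists, including the marker lists and the other guidance genes, were chosen with earlier results of these data known. Gene symbols were used as the array lists them, and all 62 member symbols are in the RefSeq gene table on GRCm38.p6, which also gave the promoters for 53. The steps were tested on simulated data. The alternatives tried were median or no normalization, neqc (offset 16), a filter that kept 11849 probes above background in a group, separate fits for each pair of groups, a replicate block, array weights, an intensity trend in the prior, a detection threshold of 0.05 and leaving out each array.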

Additional observations from a re-analysis of the deposited data

How the results depend on the processing

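Of the 57 called differences of the 42 probes named by rule, each was refitted under up to 17 alternatives. Of these 969 values, 881 stayed called in the same direction, 88 were no longer called and none reversed, and the 88 came from 24 of the differences. Of 1146 values of differences that were not called, 27 became called and 74 changed sign without being called. With median normalization the count of members lower in OV than in embryo-minus-otic was 3, that of members lower than both non-otic groups was 1, and that of members lower in periotic tissue than in embryo-minus-otic was 1. With neqc the last count was 4. With no normalization between arrays, 6 members were higher in OV than in embryo-minus-otic, 8 higher than in periotic tissue, 4 higher than in both, and 3 lower in periotic tissue than in embryo-minus-otic. Over all probes, median normalization left 670 lower in OV than in embryo-minus-otic and 315 lower in periotic tissue than in embryo-minus-otic. With quantile normalization these counts were 1417 and 757. With no normalization between arrays, 588 of all probes were higher in OV than in embryo-minus-otic and 620 higher than in periotic tissue. The cause was not tested. The median difference over all probes moved by less than 0.1 on the log2 scale under every scaling tried, at most by −0.095 with no normalization between arrays. The median of the shifts of single probes was larger with no normalization between arrays. It was −0.11 for OV against embryo-minus-otic and −0.12 for periotic tissue against embryo-minus-otic.

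With 1 array left out, the counts ranged from 11 to 13 higher and 8 to 11 lower for OV against embryo-minus-otic, from 12 to 16 and 10 to 12 for OV against periotic tissue, from 8 to 10 and 4 to 9 for periotic tissue against embryo-minus-otic, and from 7 to 9 and 5 to 7 for OV against both. Over all probes the counts ranged from 1111 to 1517 higher and 1075 to 1447 lower for OV against embryo-minus-otic. They ranged from 1020 to 1387 and 1041 to 1407 for OV against periotic tissue. For periotic tissue against embryo-minus-otic they ranged from 482 to 750 and 522 to 755. For OV against both, all probes were not counted in these fits. The lowest count of members lower in periotic tissue came without periotic tissue replicate 2 or 3 (4 each) and was 5 without replicate 1. Probes above background on all arrays ranged from 40 to 45 in OV, 38 to 41 in periotic tissue and 33 to 34 in embryo-minus-otic, and at the detection threshold of 0.05 they numbered 45, 43 and 41. Same-numbered arrays of different groups had correlations of their deviations from 0.011 to 0.23 over 9 pairs, 5 of them over 0.1, against −0.19 to 0.064 for arrays of different numbers, and 6 of 9 arrays correlated best with their own number. All same-numbered pairs were above 0, which is a hint of pairing from the data, but 4 were at or under 0.1 and no label ties a number to a litter, so the fit without the block was kept. Over all probes the replicate block gave 1659 higher and 1562 lower, 1384 and 1406, and 829 and 840 in the 3 comparisons. Without it these counts were 1513 and 1417, 1302 and 1323, and 736 and 757. Among the members the counts with the block were 14 higher and 11 lower, 17 and 13, and 12 and 9. They were 9 and 7 for OV against both, and every member call made without the block was kept. Calls that the block added were *Sema4a* lower in OV than in both other groups (*q* = 0.017 against embryo-minus-otic and 0.049 against periotic tissue), *Efna5* (*q* = 0.019) and the third *Epha1* probe (*q* = 0.044) higher in OV than in periotic tissue, the first *Sema6b* (*q* = 0.036) and second *Sema6a* probe (*q* = 0.042) higher than in embryo-minus-otic, the first *Ntn3* probe lower than in periotic tissue (*q* = 0.04), and between the non-otic groups *Efnb1* (*q* = 0.032) and *Unc5c* (*q* = 0.043) higher and the second *Epha3* probe (*q* = 0.028) lower in periotic tissue. The 39 member probes above background on no array limit what can be read for 21 genes.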

Other observations

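Genes that act downstream of guidance receptors, in the cytoskeleton and in small GTPase signalling, were read from the same fit, with 60 probes for 34 of 45 listed genes. The OV was higher for 4 and lower for 4 probes against embryo-minus-otic, and higher for 4 and lower for 11 against periotic tissue, while 7 were higher and 0 lower in periotic tissue than in embryo-minus-otic (limma with Benjamini-Hochberg adjustment, 757 of all 25697 probes lower in that comparison). Over all probes 11.4%, 10.2% and 5.81% were called in either direction in these comparisons.

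*Farp1*, which encodes an exchange factor that binds class A plexins, was highest in OV, with means of 10.66 in OV, 8.81 in periotic tissue and 9.20 in embryo-minus-otic (log2 1.86 and 1.46, *q* = 1.3e-07 and 2.3e-06). *Tiam1*, a Rac exchange factor, was higher in OV at 10.17 against 9.39 and 9.25 (log2 0.77 and 0.91, *q* = 0.00017 and 3.3e-05), and so was *Vav3*, another exchange factor, with its brighter probe at 8.82 against 7.95 and 7.54 (log2 0.87 and 1.29, *q* = 3.2e-05 and 4.8e-07). Of the 11 probes of the 5 collapsin response genes, known from semaphorin signalling in neurons, 6 were called lower in OV than in periotic tissue and 0 higher. The brighter *Crmp1* probe was at 6.68 in OV, 8.34 in periotic tissue and 7.58 in embryo-minus-otic, and the *Dpysl4* probe that was called, 1 of 3, at 10.40, 11.26 and 10.37 (log2 −1.66 and −0.86 against periotic tissue, *q* = 1.5e-06 and 8.2e-05). *Dpysl5* was between the groups, at 8.82 in OV against 9.25 in periotic tissue (*q* = 0.047) and 8.19 in embryo-minus-otic (*q* = 0.0038). Neuron markers ran the same way, lower in OV than in periotic tissue for 9 of 12 probes, and their part in these values was not tested.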
